A study of Mus musculus with 5 samples.

Results

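B cell identity and receptor signalling genes were followed in whole lung of wild type and Cldn4 knockout mice, with and without ventilator-induced lung injury (VILI). The genes were chosen by 33 listed symbols and kept where the mean log2 CPM (CPM is the reads of a gene scaled to the library total) was at least 0 in each of the 4 deposited comparison tables. The rule kept 31 of the 33, among 21590 genes present in all 4 tables and 14285 that reached the same minimum. Abundance alone was used by the rule, but the list itself was drawn up with results of these data known, so the counts below describe these genes and do not test them as a group. The 2 listed genes left out were Fcrl5, whose lowest mean log2 CPM was -1.07, and Tnfrsf13b, whose lowest was -0.20. Just inside the limit lay Pax5 at 0.93, Pou2f2 at 0.99, Cr2 at 1.05 and Tnfrsf13c at 1.13, each in the table of the less injured knockout.

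The study asked how loss of claudin 4, a tight junction protein of the alveolar epithelium, bears on lung injury by mechanical ventilation. All mice had a mixed 129S6, C57BL/6 and BALB/c background. Wild type lungs (WT_noVILI) and Cldn4 knockout lungs (KO_noVILI) were taken without ventilation. Wild type lungs (WT_VILI) and 2 sets of Cldn4 knockout lungs were taken after 2 h of ventilation at 40 cmH2O. The knockout sets were formed by injury: KO_VILIlow was labelled as injured about as much as wild type and KO_VILIhigh as injured more. The design gives 2 libraries per group, but the tables hold no value per library. Spread between libraries, their depth and whether they came from separate animals are therefore unknown here, and the deposited p-values measure the spread between these libraries, which may be technical. Age and the type of knockout allele are not given in the sources used here.

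B lymphocytes sense antigen through a membrane immunoglobulin that signals by way of the paired chains CD79A and CD79B. Kinases and adaptors such as BLK, BLNK and PKC beta pass the signal on, while co-receptors such as CR2 raise it and lectins such as CD22 and Siglec-G damp it. PAX5, EBF1, SPIB and Oct-2 (Pou2f2) maintain the gene programme of B cells, which is largely shut off when a B cell becomes an antibody-secreting plasma cell. In the lung, B cells lie in the blood, the interstitium and small lymphoid aggregates. In whole lung RNA, fewer B cells and less RNA per B cell cannot be told apart.

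Levels of each group were rebuilt from the deposited fold change and mean abundance, and are given as CPM, to be compared between groups and not between genes. The targeted gene checked the labels: Cldn4 was at 9.38 CPM in WT_noVILI and at 140 in WT_VILI, against 0.14 in KO_noVILI, 0.0212 in KO_VILIlow and 0.122 in KO_VILIhigh. Of 11 lung-defining genes, Sftpc and Scgb1a1 were deposited with a fold change of 0 in every table, and the other 9 summed to between 11552 and 13300 CPM in the 5 groups. That sum does not show its smaller members: in WT_VILI Foxj1 was lower than in WT_noVILI (84.7 to 27.1 CPM, -1.68 log2, deposited adjusted p = 4.99e-21). Sftpd was higher there (0.47, adjusted p = 0.0458), and none of the 11 was called in a knockout table. Sex-linked transcripts separated the ventilated from the unventilated lungs: Xist was at 891 CPM in unventilated wild type and 505 in unventilated knockout lungs, but between 2.56 and 6.13 CPM after ventilation, and Ddx3y at 0.234 and 0.421 CPM against 90.7 to 115 CPM. Any comparison across ventilation is thus also a comparison across sex, and these cannot be told apart. Among the unventilated lungs Xist was also lower in the knockout (-0.82 log2, adjusted p = 0.00339 in the deposited edgeR test), while Ddx3y was not called. The part of that Xist difference in the B cell differences was not tested. The reference of both ventilated knockout tables was read as WT_VILI: over 14285 genes, its rebuilt level differed from WT_VILI by a median of 0.0635 and 0.0464 log2, against 0.241 and 0.238 log2 from WT_noVILI.

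Without ventilation, most of the B cell genes were lower in the knockout lung. Of the 31 genes, 21 were lower in the authors' deposited table at an adjusted p of at most 0.05 and 0 were higher, where 2.83% of all genes at the same minimum abundance were lower and 2.01% higher. At an unadjusted p under 0.05 the edgeR test gave 26 lower and 1 higher. The median log2 fold change of the 31 was -1.21, with a range from -2.11 to 0.36, beside a median of 0.01 over all genes. The IgM Fc receptor Faim3 fell 4.31-fold, the scaffold Bank1 3.71-fold and the receptor chain Cd79a 3.03-fold. The table of KO_VILIlow against WT_VILI, which shares no group with that one, held 18 genes lower and 0 higher, beside 0.434% and 0.938% of all genes. Unadjusted counts there were 25 and 1, and the median was -1.34 (range -2.62 to 0.91, all genes -0.01). In the more injured knockout lung, against WT_VILI, 0 B cell genes were lower and only Ly6d was higher, beside 0.651% and 1.57% of all genes. With the same edgeR test at an unadjusted p under 0.05, 2 were lower and 2 higher, and the median was 0.04 (range -1.09 to 2.16, all genes -0.01).

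All 18 genes lower in KO_VILIlow were also lower in KO_noVILI, which is 100% of the first list and 85.7% of the second. Over all genes at the minimum, 36 were lower in both, or 58.1% of the 62 lower in KO_VILIlow and 8.91% of the 404 lower in KO_noVILI. The 3 genes lower in KO_noVILI alone by this threshold were Fcrl1, Fcer2a and Tnfrsf13c. Their values in KO_VILIlow were -1.34, -1.42 and -1.40 log2 with adjusted p-values of 0.154, 0.0806 and 0.391, close to their unventilated values of -1.40, -1.57 and -1.55.

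**Figure D1:**
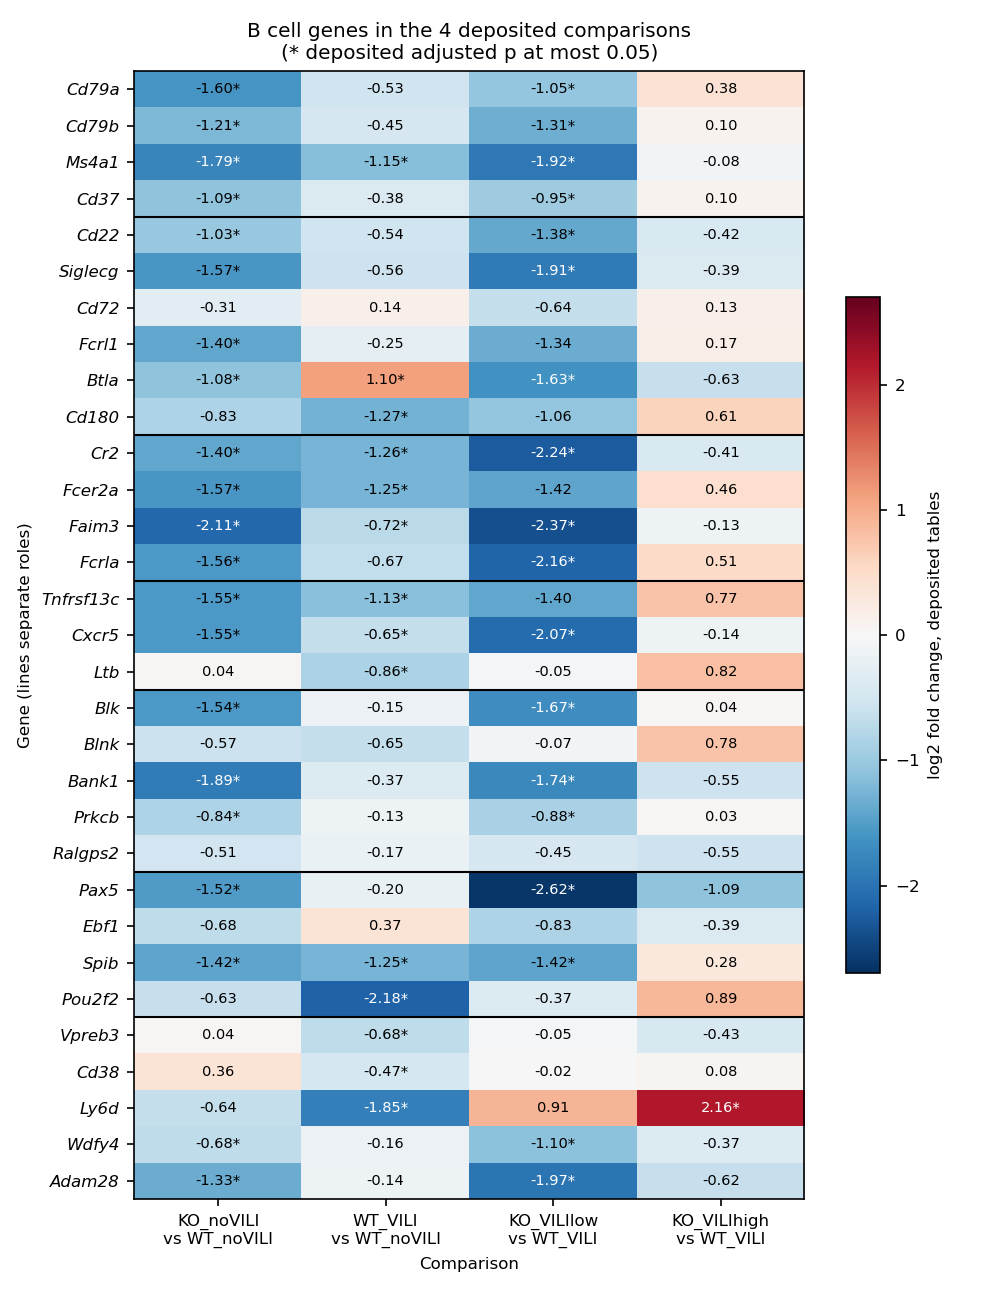
Log2 fold changes of the 31 B cell genes (vertical axis, grouped by role) in the 4 deposited comparisons (horizontal axis); colour and printed value give the fold change and an asterisk an adjusted p of at most 0.05. The columns for KO_noVILI and KO_VILIlow are mostly blue, with medians of -1.21 and -1.34, while KO_VILIhigh has a median of 0.04.

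Fewer of these genes passed the threshold as lower after ventilation of wild type lungs than in KO_noVILI or KO_VILIlow. In WT_VILI 28 of the 31 lay below 0, the same count as in KO_noVILI. At an unadjusted p under 0.05 the edgeR test gave 19 lower and 1 higher in WT_VILI. Of the 31, 13 were lower in WT_VILI than in WT_noVILI and 1 was higher in the authors' deposited table, beside 6.2% and 6.94% of all genes, and the median was -0.54 (all genes -0.02), with Pou2f2 lowest at -2.18 and Btla highest. The transcription factor gene Pou2f2 fell 4.52-fold and Ly6d 3.62-fold, while the checkpoint receptor gene Btla rose 2.15-fold. No signalling protein of the list passed the threshold there, with values from -0.65 to -0.13. All 3 survival and homing genes, Tnfrsf13c, Cxcr5 and Ltb, were lower.

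Ordered by rebuilt level, 24 of the 31 genes were highest in WT_noVILI and 26 were lowest in KO_VILIlow. Levels from different comparisons carry an offset, a median of -0.12 log2 for WT_VILI, so the order of close levels is not settled. Cd79a was at 10 CPM in KO_VILIlow and 10.5 in KO_noVILI, yet by chained fold changes it was 0.02 log2 higher in KO_VILIlow. The genes highest elsewhere were Ltb, Vpreb3 and Cd38 in KO_noVILI, Cd72, Btla and Ebf1 in WT_VILI, and Ly6d in KO_VILIhigh. The genes lowest elsewhere were Btla and Ebf1 in KO_noVILI, Ly6d in WT_VILI, and Ralgps2 and Vpreb3 in KO_VILIhigh. The median level over the 31 genes was 14.1 CPM in WT_noVILI, 11.1 in WT_VILI, 9.75 in KO_VILIhigh, 6.14 in KO_noVILI and 3.15 in KO_VILIlow.

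All receptor chains and membrane scaffolds of the list were lower in KO_noVILI and KO_VILIlow, 4 of 4 in KO_noVILI (median -1.41) and 4 of 4 in KO_VILIlow (median -1.18). Cd79a, a signalling chain of the B cell receptor, stood at 31.9 CPM in WT_noVILI, 10.5 in KO_noVILI, 22.4 in WT_VILI, 10 in KO_VILIlow and 26.9 in KO_VILIhigh. Its log2 fold change was -1.60 in KO_noVILI (adjusted p = 4.62e-09) and -1.05 in KO_VILIlow (adjusted p = 0.00804), so that both of these knockout groups lay below both wild type groups and KO_VILIhigh lay between the wild types. Cd79b, its partner chain, stood at 45.8, 19.7, 33.8, 12.9 and 34.1 CPM in the same order of groups, with -1.21 (adjusted p = 2.54e-06) and -1.31 (adjusted p = 4.88e-05). The pair thus followed the same order except that Cd79b in KO_VILIhigh was level with WT_VILI. Ms4a1, which encodes CD20, a surface protein of mature B cells, stood at 25.8 CPM in WT_noVILI, 7.49 in KO_noVILI, 11.8 in WT_VILI, 2.85 in KO_VILIlow and 10.2 in KO_VILIhigh. Of these 4 it alone passed the threshold in ventilated wild type lungs too, where it fell by 1.15 on the log2 scale (adjusted p = 3.65e-05). Cd37, a tetraspanin of mature B cells, stood at 44.3, 20.8, 34.3, 16.8 and 34.7 CPM, with log2 values of -1.09 (adjusted p = 1.48e-05) and -0.95 (adjusted p = 0.0111) in the unventilated and less injured knockouts.

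Among 6 inhibitory and tuning receptors, 4 were lower in KO_noVILI and 3 in KO_VILIlow, with medians of -1.05 and -1.36. Cd22, a sialic acid-binding lectin that recruits phosphatases to the receptor, stood at 31.1 CPM in WT_noVILI, 15.3 in KO_noVILI, 21.7 in WT_VILI, 7.79 in KO_VILIlow and 15 in KO_VILIhigh. It therefore stayed below WT_VILI in all 3 knockout groups, although the KO_VILIhigh value of -0.42 had an adjusted p of 0.901. Siglecg, the related lectin that limits B-1 cell responses, stood at 13.1, 4.41, 8.95, 2.18 and 6.24 CPM. Its log2 fold changes were -1.57 in KO_noVILI (adjusted p = 0.000412) and -1.91 in KO_VILIlow (adjusted p = 0.000144). Btla, a checkpoint receptor of B and T cells that binds HVEM, behaved differently: its levels were 16.3, 7.71, 35.1, 10.7 and 21.5 CPM. It was lower in KO_noVILI at -1.08 (adjusted p = 0.00034) and in KO_VILIlow at -1.63 (adjusted p = 4.74e-05), yet 2.15-fold higher after ventilation of wild type lungs (adjusted p = 9.84e-07). Fcrl1, an Fc receptor-like protein, was lower only in KO_noVILI by this threshold. Cd180, a Toll-like receptor relative of B cells, was not called in the knockout tables (-0.83, -1.06 and 0.61 log2) but fell by 1.27 in WT_VILI (adjusted p = 0.0017). Cd72, a lectin-like inhibitory co-receptor, passed the threshold in none of the 4 tables, with values from -0.64 to 0.14.

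**Figure D2:**
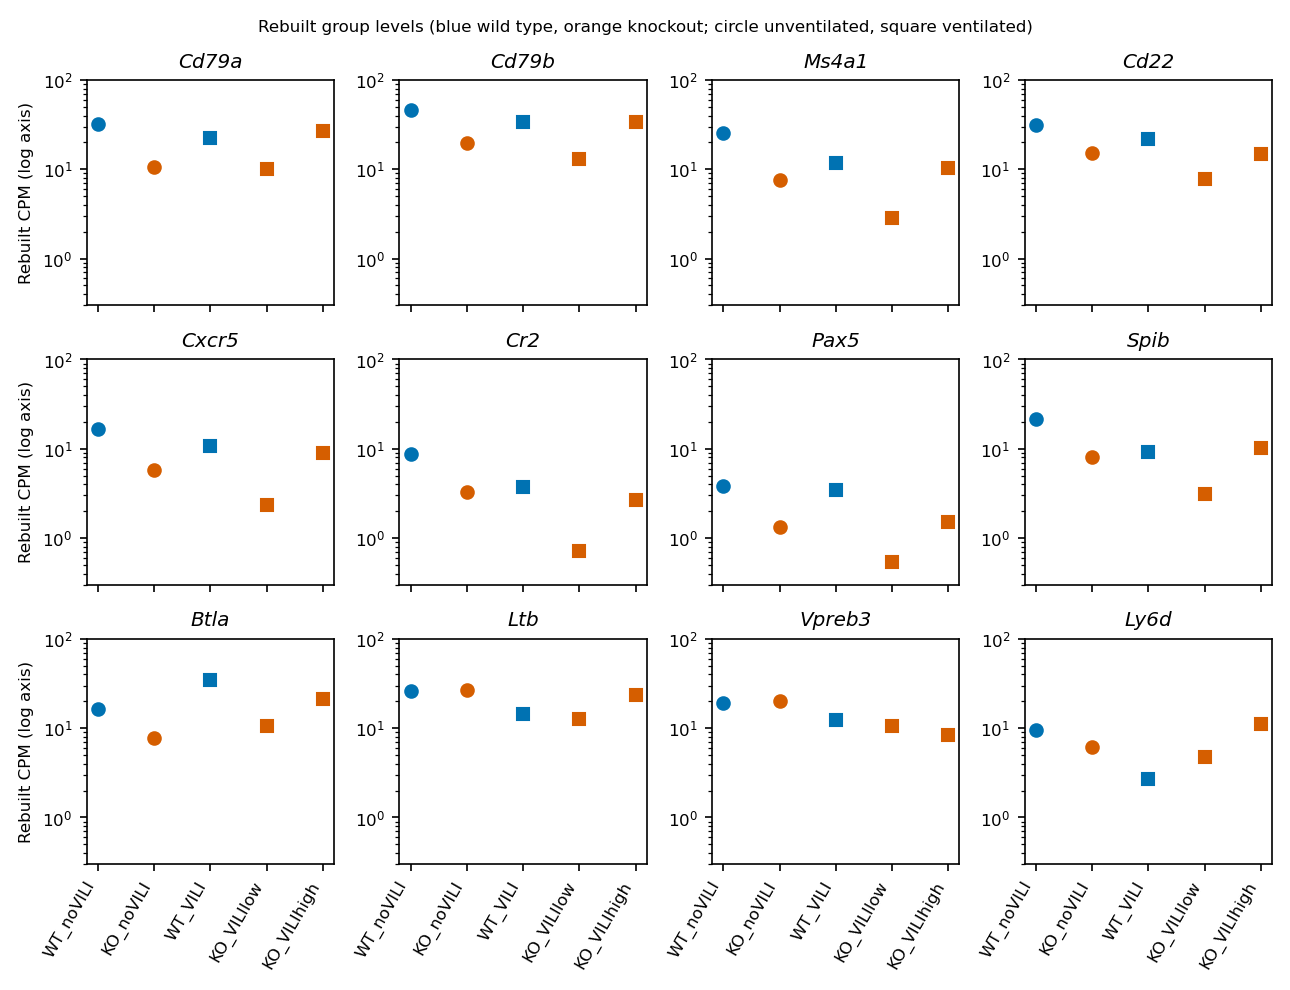
Rebuilt level in CPM (vertical log axis) of 12 B cell genes in the 5 groups (horizontal axis); each point is the level of 1 group, and no error can be drawn since no library values were used. Cd79a, Ms4a1, Cr2 and Spib dip in KO_noVILI and KO_VILIlow, whereas Btla peaks at 35.1 CPM in WT_VILI and Ly6d at 11.1 CPM in KO_VILIhigh.

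The complement, IgE, IgM and Fc-like receptors had the lowest median of any role, at -1.57 in KO_noVILI (4 of 4 lower) and -2.20 in KO_VILIlow (3 of 4 lower). Faim3, the Fc receptor for IgM, stood at 18.9 CPM in WT_noVILI, 4.38 in KO_noVILI, 11.5 in WT_VILI, 2.07 in KO_VILIlow and 9.75 in KO_VILIhigh. Its log2 fold change was -2.11 in KO_noVILI (adjusted p = 2.26e-14) and -2.37 in KO_VILIlow (adjusted p = 8.24e-07), against -0.13 in KO_VILIhigh (adjusted p = 1). Fcrla, an intracellular Fc receptor-like protein of B cells, stood at 10.9, 3.7, 6.98, 1.4 and 8.86 CPM. It was lower at -1.56 in KO_noVILI (adjusted p = 0.00053) and at -2.16 in KO_VILIlow (adjusted p = 0.000615), and in KO_VILIhigh it lay above WT_VILI without passing the threshold (0.51, adjusted p = 1). Cr2, the complement receptor CD21 that also marks follicular dendritic cells, stood at 8.67, 3.29, 3.72, 0.723 and 2.66 CPM. Its fall in KO_VILIlow was -2.24 (adjusted p = 0.0439), from a level under 4 CPM in WT_VILI. Fcer2a, the low-affinity IgE receptor CD23, fell by 1.57 in KO_noVILI (adjusted p = 4.75e-07) and by 1.25 in WT_VILI (adjusted p = 0.000174).

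Of the survival and homing genes, Cxcr5 alone was lower in both KO_noVILI and KO_VILIlow. This receptor for CXCL13, which guides B cells into follicles, stood at 16.7 CPM in WT_noVILI, 5.72 in KO_noVILI, 10.7 in WT_VILI, 2.34 in KO_VILIlow and 8.98 in KO_VILIhigh. Its log2 fold changes were -1.55 (adjusted p = 6.61e-06) and -2.07 (adjusted p = 1.87e-05). Its ligand gene Cxcl13, which is not in the list, was -0.05 in KO_noVILI (adjusted p = 1), 1.46 in KO_VILIlow (adjusted p = 0.0946) and 1.94 in KO_VILIhigh (adjusted p = 0.0048). Tnfrsf13c, the BAFF receptor on which mature B cells depend, stood at 7.01, 2.39, 3.34, 1.21 and 5.12 CPM. Ltb, a lymphotoxin chain made by B and T cells, stood at 26 CPM in WT_noVILI and 26.7 in KO_noVILI, and at 14.6, 12.7 and 23.6 CPM in WT_VILI, KO_VILIlow and KO_VILIhigh. It was lower with ventilation in wild type lungs (-0.86, adjusted p = 0.00259) and was not called in the knockout tables (0.04, -0.05 and 0.82). The TACI gene Tnfrsf13b, left out by the minimum, stood at 2.2, 1.25, 0.415, 1.5 and 1.04 CPM. Its log2 values were -0.82 in KO_noVILI (adjusted p = 0.613), -2.63 in WT_VILI (adjusted p = 0.00463), 1.53 in KO_VILIlow and 0.56 in KO_VILIhigh (adjusted p = 1 in both), and the last 3 rest on a WT_VILI level of 0.415 to 0.705 CPM, depending on the table. The other gene left out, Fcrl5, had rebuilt levels of 0.252 to 0.743 CPM, and no change is described.

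Among the signalling proteins, the kinase gene Blk, the scaffold Bank1 and Prkcb, which encodes PKC beta, were lower in both KO_noVILI and KO_VILIlow. Blk stood at 11.6 CPM in WT_noVILI, 4 in KO_noVILI, 10.7 in WT_VILI, 3.04 in KO_VILIlow and 10.1 in KO_VILIhigh. Bank1 stood at 14.1, 3.8, 11.1, 3.04 and 6.89 CPM, with log2 fold changes of -1.89 (adjusted p = 4.56e-08) and -1.74 (adjusted p = 0.000209). In KO_VILIhigh Blk was level with WT_VILI, whereas Bank1 lay below it without passing the threshold (-0.55, adjusted p = 0.888). Prkcb, also expressed in other leukocytes, stood at 41.5, 23.2, 38.2, 19.8 and 37 CPM and was lower at -0.84 (adjusted p = 0.00367) and -0.88 (adjusted p = 0.0206). The adaptor gene Blnk and Ralgps2, an exchange factor for Ral GTPases, passed the threshold in none of the 4 tables, with values from -0.65 to 0.78 and from -0.55 to -0.17.

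Of the 4 transcription factors, Pax5 and Spib were lower in both KO_noVILI and KO_VILIlow. Pax5, which fixes B cell identity, stood at 3.8 CPM in WT_noVILI, 1.32 in KO_noVILI, 3.43 in WT_VILI, 0.532 in KO_VILIlow and 1.51 in KO_VILIhigh. Its log2 fold changes were -1.52 (adjusted p = 0.0327), -2.62 (adjusted p = 0.00804) and, in KO_VILIhigh, -1.09 (adjusted p = 0.693), all from low levels. Spib, an ETS factor also used by plasmacytoid dendritic cells, stood at 21.8, 8.11, 9.28, 3.15 and 10.3 CPM. It fell by 1.42 in KO_noVILI (adjusted p = 0.000176), by 1.42 in KO_VILIlow (adjusted p = 0.0114) and by 1.25 in WT_VILI (adjusted p = 4.35e-06). Ebf1, which acts with Pax5 in B cells but is also expressed by stromal cells, stood at 8.86, 5.54, 11.6, 5.9 and 8.07 CPM and passed the threshold in none of the tables. Pou2f2, which encodes Oct-2, stood at 9.68, 6.26, 2.24, 1.73 and 4.27 CPM. It was lower with ventilation in wild type lungs (-2.18, adjusted p = 3.09e-06), and its values in the knockout tables did not pass the threshold (-0.63, -0.37 and 0.89).

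Promoter windows of the genes were searched for the letters bound by these factors, to show where genes that did and did not fall carry them. The windows come from RefSeq on GRCm38.p6, span 250 bases before to 50 bases after a gene's start, and were found for 27 of the 33 listed genes, in 33 windows. Cd79b, Ms4a1, Cxcr5, Blk, Ly6d and Adam28 had none. Both strands were searched for the octamer ATGCAAAT of POU factors such as Oct-2, the core TCCCNNGGGA of Ebf1 and the core GAGGAAGT of SPI factors such as Spib. Among all 32851 windows 1.74% held the octamer, 0.904% the Ebf1 core and 3.2% the SPI core. Genes of the list with a match were Prkcb, Vpreb3 and Blnk for the octamer, Cd22 for the Ebf1 core, and Fcrl1, Cd72, Cd37 and Btla for the SPI core. A match describes letters only and is no evidence of binding. Of the 5 windows printed, Cd22, Prkcb and Cd37 belong to genes lower in KO_noVILI and KO_VILIlow, and Vpreb3 and Cd72 to genes called in neither, so the letters occurred in both kinds. Each window is read 5′ to 3′ on the strand of its gene, with the match in capitals. Cd22 lies on the minus strand at chr7:30878979-30879278, with the Ebf1 core beginning 49 bases before the start. Prkcb lies on the plus strand at chr7:122288875-122289174, with the octamer beginning 70 bases before the start. Vpreb3 lies on the plus strand at chr10:75948050-75948349, with the reverse complement of the octamer beginning 45 bases before the start. Cd37 lies on the minus strand at chr7:45238790-45239089 and Cd72 on the minus strand at chr4:43454577-43454876, with the reverse complement of the SPI core beginning 25 and 49 bases before their starts.
Cd22: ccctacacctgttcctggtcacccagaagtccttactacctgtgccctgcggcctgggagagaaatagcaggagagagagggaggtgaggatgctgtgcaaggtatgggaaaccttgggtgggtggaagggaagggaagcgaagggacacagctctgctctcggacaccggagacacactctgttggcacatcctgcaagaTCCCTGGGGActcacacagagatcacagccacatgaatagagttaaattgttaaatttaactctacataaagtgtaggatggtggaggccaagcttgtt
Prkcb: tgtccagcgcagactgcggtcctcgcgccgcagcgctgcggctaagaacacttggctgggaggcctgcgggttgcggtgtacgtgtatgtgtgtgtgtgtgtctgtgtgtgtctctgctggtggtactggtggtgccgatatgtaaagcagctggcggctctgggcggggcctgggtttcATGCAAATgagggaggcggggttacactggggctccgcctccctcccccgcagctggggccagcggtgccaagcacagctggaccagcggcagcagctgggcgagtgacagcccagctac
Vpreb3: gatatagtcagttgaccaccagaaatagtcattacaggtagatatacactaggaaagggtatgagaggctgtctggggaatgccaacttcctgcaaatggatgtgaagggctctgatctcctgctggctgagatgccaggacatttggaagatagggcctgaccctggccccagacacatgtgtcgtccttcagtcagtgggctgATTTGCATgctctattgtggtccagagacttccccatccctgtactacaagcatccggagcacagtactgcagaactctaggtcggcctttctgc
Cd37: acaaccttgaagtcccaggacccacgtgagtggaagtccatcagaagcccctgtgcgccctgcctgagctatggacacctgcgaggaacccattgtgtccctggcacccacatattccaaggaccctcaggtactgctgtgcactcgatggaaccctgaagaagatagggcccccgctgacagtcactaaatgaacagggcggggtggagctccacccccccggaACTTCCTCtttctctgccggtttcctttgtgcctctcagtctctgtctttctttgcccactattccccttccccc
Cd72: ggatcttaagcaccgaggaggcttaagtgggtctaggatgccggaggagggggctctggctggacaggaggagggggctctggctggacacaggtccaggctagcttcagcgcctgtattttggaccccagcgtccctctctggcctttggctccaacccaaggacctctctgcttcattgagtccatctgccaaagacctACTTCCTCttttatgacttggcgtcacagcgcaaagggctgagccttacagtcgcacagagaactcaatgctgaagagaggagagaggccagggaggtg

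The remaining 5 genes split. Adam28, a metalloprotease-disintegrin of lymphocytes, stood at 8.72 CPM in WT_noVILI, 3.47 in KO_noVILI, 7.98 in WT_VILI, 1.84 in KO_VILIlow and 4.76 in KO_VILIhigh, and was lower in KO_noVILI (-1.33, adjusted p = 0.000612) and KO_VILIlow (-1.97, adjusted p = 0.00047). Wdfy4, which dendritic cells also use for cross-presentation, stood at 47.3, 29.6, 42.8, 19.1 and 31.8 CPM and was lower at -0.68 (adjusted p = 0.0397) and -1.10 (adjusted p = 4.74e-05). Like the receptor chains, both were lower in these knockout groups. In KO_VILIhigh both lay below both wild type groups without passing the threshold (-0.62, adjusted p = 0.901, and -0.37, adjusted p = 0.824). Cd22 and Bank1, among others, also lay below both wild type groups in KO_VILIhigh without passing the threshold (-0.42 and -0.55 log2 against WT_VILI). Ms4a1 was close to WT_VILI there (-0.08). Vpreb3, a protein of B cell precursors and some mature B cells, stood at 19.4, 20, 12.3, 10.7 and 8.46 CPM. Cd38, an ectoenzyme that many lung cells express besides B cells, stood at 91.1, 117, 67.6, 65.2 and 69.4 CPM. Each fell with ventilation in wild type lungs (-0.68, adjusted p = 0.0252, and -0.47, adjusted p = 0.0169) and was called in no knockout table. Ly6d, a surface protein of early B cell progenitors that epithelial cells can also express, stood at 9.57, 6.14, 2.73, 4.74 and 11.1 CPM. It fell by 1.85 with ventilation in wild type lungs (adjusted p = 0.000241) and was the 1 gene of the list higher in KO_VILIhigh than in WT_VILI (2.16, adjusted p = 0.00191).

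The difference between the ventilated knockout sets was tested as the difference of their deposited fold changes against WT_VILI, which cancels that shared reference. The test is approximate, since each standard error (SE) was recovered from a deposited p-value, and it counts the variance of WT_VILI although it cancels. Of 29 genes abundant enough to test, 27 lay above 0 (KO_VILIhigh minus KO_VILIlow) and 2, Ralgps2 and Vpreb3, below, with a median of 1.35 log2 beside -0.01 over all genes. After Benjamini-Hochberg adjustment over all 12696 genes only Fcrla was called, higher by 2.67 ± 0.63 (SE, adjusted p = 0.0198), beside 0.15% of all genes called higher and 0.0158% called lower. At an unadjusted p under 0.05 there were 21 genes, and the share of all genes at that p is not given here. Faim3 differed by 2.24 (95% interval 1.04 to 3.45, adjusted p = 0.116), Cd79a by 1.43 (0.67 to 2.19, adjusted p = 0.107) and Ms4a1 by 1.84 (0.68 to 3.00, adjusted p = 0.429). Pax5 and Pou2f2 fell below the minimum log2 CPM of 1 and were not tested.

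The genotype difference with low injury was compared with that without ventilation in the same way. None of 29 B cell genes was called, beside 0.237% of all genes called lower and 0.932% higher, and at an unadjusted p under 0.05 there was 1, Ly6d (1.55, 95% interval 0.46 to 2.64). The median difference was -0.13 log2, with 10 genes above 0 and 19 below. The intervals were wide: -0.73 to 0.54 for Cd79b, -1.10 to 0.83 for Ms4a1, -1.17 to 0.64 for Faim3 and -0.90 to 0.91 for Spib. The count of 0 depended on how the SE was recovered: with a t quantile in place of the normal one, 12 genes were called lower and 3 higher. The share of all genes called with that quantile is not given here, so these counts are not read as a result about the B cell genes.

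For the more injured knockout the genotype difference stood apart from the unventilated one in 6 of 31 genes, all higher, beside 1.19% of all genes called higher and 0.383% lower. With a t quantile in place of the normal one for the SE, 2 genes were called higher in place of these 6, and the share of all genes so called is not given here. Cd79a differed by 1.97 ± 0.37 (SE, adjusted p = 3.93e-05), moving from -1.60 in KO_noVILI to 0.38 in KO_VILIhigh. Ly6d differed by 2.80 ± 0.59 (SE, adjusted p = 0.0005) and Tnfrsf13c by 2.33 ± 0.68 (SE, adjusted p = 0.0443). Fcrla, Faim3 and Cd37 differed by 2.08, 1.98 and 1.19, with adjusted p-values of 0.0193, 0.021 and 0.0335. The median over the 31 genes was 1.31, with 28 above 0 and 3, Ralgps2, Vpreb3 and Cd38, below. Cd22, at 0.60 with an interval of -0.08 to 1.29, and Wdfy4, at 0.31 with an interval of -0.30 to 0.92, were not called. This contrast also sets ventilated against unventilated lungs, which differ in sex-linked transcripts, and it cannot tell these apart.

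**Figure D3:**
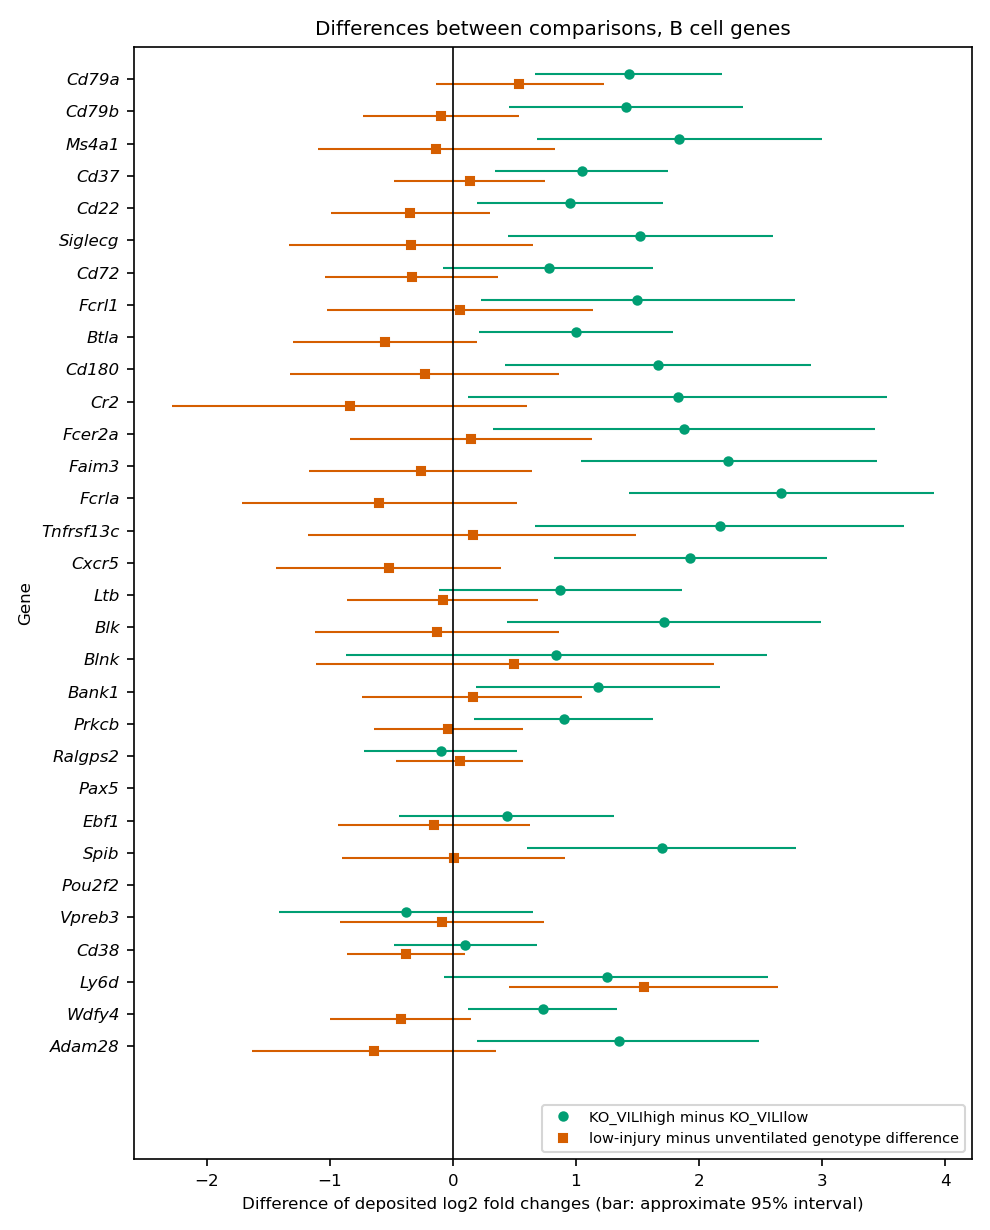
Difference of log2 fold changes (horizontal axis) for each B cell gene (vertical axis), with approximate 95% intervals as bars; circles show KO_VILIhigh minus KO_VILIlow and squares the genotype difference with low injury minus that without ventilation, both of which use the KO_VILIlow table. Circles lie mostly right of 0 (median 1.35) and squares around 0 (median -0.13); Pax5 and Pou2f2 were not tested.

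Within the knockout, the change with ventilation was obtained by chaining deposited fold changes through both wild type groups and carries no test. From KO_noVILI to KO_VILIlow 28 of 31 genes lay below 0, with a median of -0.78, with Cr2 the lowest at -2.10. From KO_noVILI to KO_VILIhigh 25 of 31 lay above 0, with a median of 0.66, with Vpreb3 the lowest at -1.15. Btla was the highest in both, at 0.56 and 1.56.

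Other genes of the B cell pathway, from lists that hold none of the 31, are given by list. The 24 receptor signalling genes had medians of -0.15 in KO_noVILI and -0.13 in KO_VILIlow, and Syk, a kinase many leukocytes share, was lower in KO_noVILI (-0.53, adjusted p = 0.0318). Among 13 transcription factors outside the list, Mef2c was lower in KO_noVILI (-0.67, adjusted p = 0.0012), and Id3 was higher in KO_VILIlow (0.79, adjusted p = 0.00795) and KO_VILIhigh (1.33, adjusted p = 1.54e-05). Of 21 surface, homing and antigen presentation genes, 3 were lower in KO_noVILI and 2 in KO_VILIlow, beside 2.83% and 0.434% of all genes. In KO_VILIhigh 1 was lower and 1 higher, beside 0.651% and 1.57% of all genes. The higher one was Cd83 (1.11, adjusted p = 0.000205), and Cd55 was among the 3 lower in KO_noVILI (-0.64, adjusted p = 0.00103). H2-Ob, a chain of the H2-O protein that restrains peptide loading in B cells, stood at 37.6, 7.7, 32.7, 5.78 and 14.5 CPM, and was lower in KO_noVILI (-2.29, adjusted p = 1.06e-22), KO_VILIlow (-2.43, adjusted p = 7.91e-16) and also KO_VILIhigh (-1.10, adjusted p = 0.00668). Its partner chain H2-Oa was lower in KO_noVILI (-1.40, adjusted p = 0.00102) and KO_VILIlow (-1.52, adjusted p = 0.0221). None of 8 further BAFF and APRIL system genes was called in a knockout table (2, 0 and 2 at an unadjusted p under 0.05), and in WT_VILI the NF-kB genes Relb (0.88) and Birc3 (0.77) rose.

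Plasma cell genes did not follow the B cell genes. Of 10 at the minimum, 2 were higher in KO_noVILI, 2 in KO_VILIlow and 3 in KO_VILIhigh, beside 2.01%, 0.938% and 1.57% of all genes. None was called lower in a knockout table. The list medians were 0.25, 0.12 and 0.46. In KO_VILIlow Prdm1, Sdc1, Fkbp11 and Irf4 lay slightly below 0 and the others above it. Igj, the joining chain of secreted IgM and IgA, stood at 43.8 CPM in WT_noVILI, 206 in KO_noVILI, 53 in WT_VILI, 254 in KO_VILIlow and 295 in KO_VILIhigh. Derl3, a protein of the secretory pathway abundant in plasma cells, stood at 1.56, 4.27, 1.88, 5.07 and 6.31 CPM. The third gene, Mzb1, passed the threshold in KO_VILIhigh alone (1.26, adjusted p = 0.0387). Igj was therefore higher in all 3 knockout groups, including KO_VILIhigh, where 0 B cell genes were called lower.

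Markers of other cell types are given as sums over each list, in the order WT_noVILI, KO_noVILI, WT_VILI, KO_VILIlow and KO_VILIhigh. T cell genes summed to 346, 394, 362, 278 and 413 CPM, and 0 of 20 were called in a knockout table (9, 2 and 4 at an unadjusted p under 0.05). NK cell genes summed to 42.9, 89.4, 51.8, 29.1 and 51.6 CPM. Gzma, Prf1 and Il2rb were higher in KO_noVILI (3 of 9, beside 2.01% of all genes), with Gzma at 32.5 CPM against 7.47 in WT_noVILI. The list median there was 0.14: Nkg7 and Klrd1 lay above 0 and Ncr1, Klrb1c, Klrk1 and Eomes below it, none of them called. In KO_VILIlow the list median was -0.86, with 0 of 9 called and 5 at an unadjusted p under 0.05. The T cell and NK cell sums were both lowest in KO_VILIlow, the group in which most B cell genes were lowest too, and their part in that was not tested. Plasmacytoid dendritic cell genes, of which none of 9 was called in any table (2, 2, 3 and 2 at an unadjusted p under 0.05), summed to 328, 290, 310, 245 and 240 CPM. Most of that sum was Tcf4, at 227, 181, 214, 154 and 130 CPM. The list median was -0.10 in KO_VILIlow and 0.44 in KO_VILIhigh, so the lower sum in KO_VILIhigh was not shared by most of the list. Neutrophil genes summed to 236, 263, 758, 968 and 1301 CPM and red blood cell genes to 3956, 6254, 902, 3403 and 3084 CPM. The red blood cell sum was lowest in WT_VILI, the reference of both ventilated knockout tables, and its part in the B cell differences was not tested. Alveolar macrophage genes summed to 669, 809, 509, 691 and 642 CPM. The dip in WT_VILI was mostly that of Chi3l3, at 241, 295, 106, 270 and 252 CPM. The list medians were 0.13 in KO_noVILI, -0.17 in WT_VILI, 0.07 in KO_VILIlow and -0.04 in KO_VILIhigh. Of these 11 genes, 2 were higher in KO_noVILI (Marco and Car4), 1 in KO_VILIlow (Chi3l3) and 2 in KO_VILIhigh (Marco and Chi3l3). The shares of all genes called higher were 2.01%, 0.938% and 1.57%, and 0 of the 11 were called lower in a knockout table. Thymocyte genes, 4 of 9 at the minimum and 0 called (1, 0, 0 and 1 at an unadjusted p under 0.05), summed to 26.6, 31.7, 27.6, 19.2 and 29.9 CPM. Early B cell and lymphoid stroma lists had only 2 and 3 genes at the minimum, of which Il7r rose in WT_VILI (0.51, adjusted p = 0.0203) and Cxcl13 in KO_VILIhigh.

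**Figure D4:**
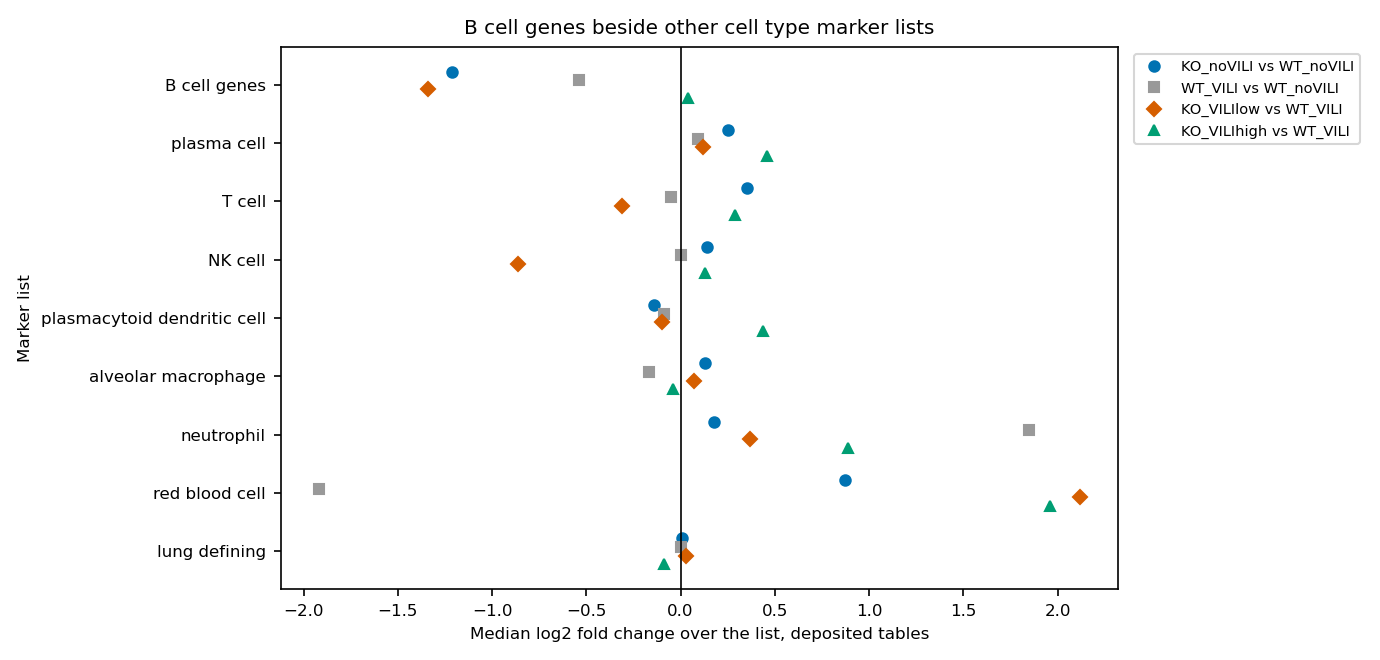
Median log2 fold change (horizontal axis) of the 31 B cell genes and of 8 marker lists (vertical axis) in the 4 deposited comparisons, drawn as 4 marker shapes. The B cell genes lie at -1.21 in KO_noVILI and -1.34 in KO_VILIlow and red blood cell genes lie at 2.12 in KO_VILIlow.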

How the data were processed

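RNA of whole lung was extracted with TRIzol and sequenced from TruSeq libraries, per the labels' protocols. Per the submitters' processing notes the authors used Bowtie 1.1.2, the mouse build mm9, R 3.0.1 and edgeR, whose version, settings and counting method are not given in the sources used here. The deposited files are 4 comparison tables with 0 columns of values per library, so depth per library is unknown. The authors deposited log2 fold changes (logFC) and log2 mean CPM (logCPM), whose base the headers do not state and which were read as log2, and the p-value and adjusted p (FDR) of their edgeR test for each gene. A gene was called at a deposited adjusted p of at most 0.05. Counts at an unadjusted p under 0.05 are given without the share of all genes at that p.

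From these values, group levels in CPM, marker sums and 3 derived contrasts were computed with Python 3.11.15, numpy 2.4.6, pandas 2.3.3 and scipy 1.17.1. In a derived contrast the SE of each fold change was its size divided by the normal quantile of its p, variances were summed, and p-values were adjusted by Benjamini-Hochberg over the genes whose logCPM reached 1 in both tables. This was tested on simulated data. WT_VILI levels rebuilt from the 2 ventilated knockout tables lay a median of -0.12 log2 from those of the ventilation table over the 31 genes, so levels across tables carry that offset. Genes were matched by Entrez identifier. Faim3 is the symbol in the tables for the gene now called Fcmr. Promoter windows came from RefSeq on GRCm38.p6, another build than mm9, and were matched by symbol.

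The members, the 15 marker and pathway lists and the tests were chosen with earlier results of these data known. Levels in all groups are given for 12 genes named in the plan and for every gene lower or higher in KO_noVILI and in a ventilated knockout table, for Igj, Derl3 and H2-Ob as list members, and for others where chosen after their values were seen (Ly6d, Vpreb3, Cd38). Of other lists, up to 6 called genes per list and comparison could be named, and 1 result of the receptor signalling list is not reported here. Alternatives were other thresholds and adjustments, other abundance minimums, centring, and a t quantile for the SE.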

Additional observations from a re-analysis of the deposited data

Results flagged for a closer look

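The genotype effect on these B cell genes differed between conditions for the genes below, by the approximate test of the difference of deposited log2 fold changes adjusted over all genes. Between the ventilated knockout sets, Fcrla differed by 2.67 (KO_VILIhigh minus KO_VILIlow, adjusted p = 0.0198). Between the more injured ventilated and the unventilated comparison, Cd79a differed by 1.97, Cd37 by 1.19, Faim3 by 1.98, Fcrla by 2.08, Tnfrsf13c by 2.33 and Ly6d by 2.80. In all 6 the knockout-minus-wild-type difference was higher in the more injured ventilated lungs than without ventilation. With a t quantile for the SE, 2 genes were called in place of these 6, without a share of all genes to set beside them. Red blood cell genes summed to 6254 CPM in KO_noVILI against 3956 in WT_noVILI, and to 3084 CPM in KO_VILIhigh and 3403 in KO_VILIlow against 902 in WT_VILI, and their part was not tested. The knockout sets were formed by injury, so injury and any other property of those animals cannot be told apart.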

How the results depend on the processing

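Of 76 recomputed values, 63 were the same, meaning within 1.5 times for a count and equal to 2 decimals for a median. Many of the 63 were counts of 0 that stayed 0, some under stricter settings that could not raise them, so the 63 do not measure stability. Of the rest, 6 medians moved without changing sign, 5 counts were weaker and 2 stronger, and 0 reversed. The count of lower genes in KO_noVILI went from 21 to 10 under Bonferroni adjustment. The count of lower genes in WT_VILI went from 13 to 7 at a deposited FDR of at most 0.01 and to 3 under Bonferroni, and the 1 higher gene in KO_VILIhigh went to 0 under Bonferroni. Centring on the median of all genes moved the medians to -1.23 in KO_noVILI, -0.52 in WT_VILI and -1.33 in KO_VILIlow. Without a minimum abundance, which adds Fcrl5 and Tnfrsf13b, they were -1.09 in KO_noVILI, -1.31 in KO_VILIlow and 0.08 in KO_VILIhigh. With a t quantile for the SE, the low-injury genotype difference against the unventilated one gave 12 lower and 3 higher genes in place of 0, and the high-injury one gave 2 higher in place of 6. By construction that quantile shrinks the SE of genes with small p-values, to a median of 0.0124 against 0.462 in the low-injury contrast. The share of all genes called with it is not given here, so the t quantile counts are not read as a result about the B cell genes. No paired analysis was possible because the labels hold 1 record per group and no replicate numbers, and no library could be left out because the tables hold no library values. Depth per library is unknown, and the lowest mean log2 CPM among the 31 genes were those of Pax5, Pou2f2, Cr2 and Tnfrsf13c.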
